A study of Drosophila melanogaster with 24 samples.

Results

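The genes described here are 71 pseudogenes of *Drosophila melanogaster* whose symbols consist of CR followed directly by digits, the form FlyBase gives to genes that make no protein and have no other name. They were chosen by symbol and by level, as every such gene whose mean normalized count reached 10 at day 3. Among 12961 genes listed at day 3, 75 carried a symbol of this form and 71 passed the minimum. Over all 4 days, 82 such symbols were listed among 13395 genes. The working description of the set also named non-coding genes, but all 71 members were annotated as pseudogenes by RefSeq, and all 71 by Ensembl, with the same span in both annotations. Since the level at day 3 chose the members, their levels on that day are a description and carry no test.

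RNA was sequenced from testis cells of males that carried the early germline driver *nos-Gal4* with *UAS-mCherry RNAi* (Ctrl KD, a control hairpin) or *UAS-set1 RNAi* (*Set1* KD). *Set1* encodes the main H3K4me3 methyltransferase of the fly, and the driver acts in germline stem cells and spermatogonia. Entire testes were desheathed with trypsin and collagenase and filtered to give the cells sequenced, somatic cells included. All flies were raised at 18°C and aged at 25°C for 0, 1, 3 or 5 days after eclosion, with 3 libraries per genotype and day (24 in all), each from about 15 pairs of testes pooled. Each deposited table gives 1 mean normalized count per gene over the 6 libraries of a day, both genotypes together, and the authors' own comparison of the genotypes, which was not used here. No value therefore separates *Set1* KD from Ctrl KD, the knockdown itself was not checked, and no value has an SD or an n. Depth and values per library were not used, so the counting error of each mean is unknown.

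Pseudogenes are copies or remnants of genes that are thought to have lost the ability to make the original protein, by a frameshift, an early stop or a missing part. Some arise by duplication and keep introns, and others arise when an mRNA is copied back into the genome, which leaves a copy without introns. Many are still transcribed, and the testis is known as a tissue in which an unusually wide range of genes, young copies and non-coding genes is transcribed. The RNA of a pseudogene can share sequence with the gene it came from, so reads can be placed on either copy or left out. Near-identical copies were not searched for here.

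The tissue label was checked first. The 7 spermatid markers took between 6089 and 6689 parts in 1000000 (ppm) of a day's summed counts, and *Mst87F*, a sperm tail protein gene, was at percentile 99.6 or 99.7 of the listed genes on each day. The 6 spermatocyte markers took 485 to 576 ppm and the 5 spermatogonial markers 94.9 to 120. Within the spermatogonial sum *bgcn* was at 51.7 ppm at day 0 and 52.7 at day 5. Between these days *nos* went from 28.1 to 38.7 (19.0 at day 1) and *vas* from 8.76 to 14.4. *bam* went from 3.73 to 5.78 and *stg* from 2.65 to 4.23. All of these 18 germline markers were listed. Markers of other cells also moved between days. Over days 0, 1, 3 and 5 in turn, the summed share of 4 sheath muscle markers was 3213, 2214, 1477 and 1161 ppm. That of 3 hemocyte markers was 22.7, 33.6, 64.9 and 110. Within it *Hml* went from 9.17 to 84.6 ppm and *NimC1* from 1.52 to 13.1 between days 0 and 5, while *srp* was at 12.03 and 12.7. The sum for 4 accessory gland markers was 98.3, 81.5, 12.2 and 46.0, with *SP* and *Acp53Ea* listed at days 0 and 1 alone. The sums of hub markers (3 of 3 listed, 53.1 to 62.8) and cyst cell markers (4 of 4, 92.2 to 113) moved less, though the cyst marker *tj* went from 1.79 ppm at day 0 to 6.30 at day 3. The pigment cell sum (158 to 180) was nearly all *w* (154 to 174), and *st* was listed at days 3 and 5 alone. Of the fat body pair *Lsp2* was listed and *Yp1* was not.

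RefSeq annotates 280 genes with a symbol of this form, all 280 of them as pseudogenes, out of 311 pseudogenes in all. Of these 280 genes, 29.3% were listed on at least 1 day and 25.4% became members. The members lie on every large chromosome arm, with 17 on 2L, 15 on 3L, 12 on 2R, 11 on X, 9 on 3R and 7 on Y. No member lies on chromosome 4, where 7 such genes are annotated. As a share of the annotated genes with such a symbol, members made up 40.5% of 42 genes on 2L and 40.5% of 37 on 3L. On X they made up 20% of 55 and on Y 11.5% of 61. The share of all genes of each arm that reached the minimum is not given here. The shares of members describe the annotation and the rule together.

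Most members are short. The union of their annotated exons had a median of 829 bases and ran from 322 bases in *CR43734* to 2636 bases in *CR33013*. A single exon block was annotated for 27 members and at least 2 blocks for 44, and 61 members have 1 annotated transcript. An older CG name, the form used for protein-coding genes, is recorded for 41 members and a cDNA clone name for 7. An older name with the prefix lncRNA is recorded for 3 (*CR45879*, *CR42875* and *CR43309*). *CR42786* and *CR43309* also bear an older name of the form lincRNA. The level per exon length at day 3 had a median of 5.24 ppm in the 41 members with an older CG name and 5.41 in the 30 without one. By exon structure, the median was 6.26 for the 27 members with a single block and 4.81 for the other 44. How reads that cross exon junctions were mapped was not examined, and its part in levels by exon structure was not tested.

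All members together took a small part of the RNA. Their summed share of the counts was 0.115%, 0.104%, 0.0968% and 0.106% on the 4 days in order. *CR33319* alone gave 27.6%, 27.3%, 25.1% and 24.8% of these sums, and the 5 highest members of each day gave between 51.7% and 56.2%. For comparison, genes with the prefix lncRNA that passed the same minimum took 1.76% of the counts at day 3 (1007 genes), those with the prefix asRNA 0.162% (210 genes) and protein-coding genes 94.4% (11348 genes).

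The level of a gene was compared with that of others per exon length. Counts are also given for each day, as deposited. They do not order the levels of genes, and counts of different days are not on 1 scale. Without rescaling, 93.6% of all genes were higher at day 1 than at day 0. For example, the count of *CR43975* went from 1450 to 1761 between these days, but its share from 89.6 to 78.9 ppm. The level per exon length is the authors' mean divided by the exon length and then expressed in ppm of the sum of such values over the genes of the day. At day 3, 3 members stood at 100 or above, 26 at 10 or above, 66 at 1 or above and 5 under 1. The median of the 71 members was 5.24 and the interquartile range was 1.99 to 23.1. The median was 6.93 for 1007 lncRNA genes, 2.56 for 210 asRNA genes and 12.3 for 11348 protein-coding genes, and 7.10 for 7 pseudogenes with another kind of symbol. Since the minimum is a count, a shorter gene needs a higher level per exon length to pass it. Median exon lengths at day 3 were 829 bases for members, 677 for lncRNA, 988 for asRNA and 1925 for protein-coding genes. Of the 71 members, 24 stood above the median of all genes by this level and 2 in the top 10%. Over the 62 members listed on all 4 days, the median was 7.88, 6.11, 6.24 and 6.50 on the 4 days in order, and over all genes meeting the same conditions it was 10.8, 10.5, 12.1 and 12.1. Each day was normalized by itself, so values of different days were not tested against each other.

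**Figure D1:**
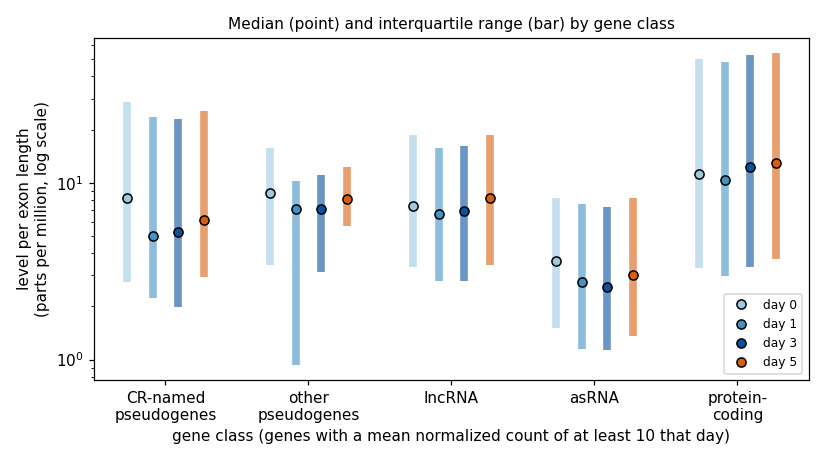
Level per exon length (ppm, log axis) by gene class and day, with the median as a point and the interquartile range as a bar, for genes that reached a count of 10 on that day. The CR-named pseudogenes shown had also passed the day 3 minimum, which was not asked of the other classes. At day 3 the median of the CR-named pseudogenes (5.24) lay between that of asRNA genes (2.56) and those of lncRNA (6.93) and protein-coding genes (12.3). The classes differ in exon length, so the count of 10 is a different level per exon length in each.

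The highest member by far was *CR33319* (FBgn0053319; dm6 chromosome 2L, 20928824 to 20929525, plus strand), a pseudogene with 2 exon blocks and 593 exonic bases. Its mean normalized counts at days 0, 1, 3 and 5 were 5138, 6310, 5386 and 4681. Per exon length this was 739, 681, 588 and 621 ppm, at percentile 97.9 of genes at day 3. On the opposite strand, 70 bases of its exons overlap *CG9270*, whose counts were 68.5, 98.9, 93.5 and 76.4. Its neighbor *CR33318* (FBgn0053318; 2L, 20923955 to 20924534, plus strand) lies 4289 bases upstream and shares the older name *CG18078* with it. The mean normalized count of *CR33318* was 1077, 1397, 1164 and 958.6, and its level per exon length was the third highest, at 144 ppm on day 3. The ratio of counts of *CR33318* to *CR33319* stayed between 0.205 and 0.221 on the 4 days. These genes may share reads if their sequences are alike, and this was not examined.

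*CR43975* (FBgn0264706; chromosome 3R, 21216820 to 21217242, plus strand) was the second highest, with 1 exon of 423 bases. Its mean normalized count was 1450, 1761, 1575 and 1521 at days 0, 1, 3 and 5, and its level per exon length was 241 at day 3. *CR43734*, the shortest member and also of 1 exon, had rank 4, after *CR33318*, at 96.6 ppm, from a mean normalized count of 480.5. *CR17438* on the X chromosome had the second highest count at day 3 (1404, 1875, 1739 and 1399 on the 4 days) but rank 5 per exon length (86.3), since its single exon has 1305 bases. The same holds for *CR11023* at the left end of 2L (7529 to 9484, plus strand), whose counts of 1019, 1648, 1423 and 1210 correspond to 49.0 at day 3 over 1880 bases.

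Of the 10 highest members per exon length, 7 have a single exon block, as do 12 of the 20 highest, against 27 of all 71. The mapping of reads across exon junctions, not examined here, could bear on this order. Ranks 6 to 10 were held by *CR43100* (84.4), *CR43441* (75.2), *CR31958* (58.7), *CR43170* (53.5) and *CR11023*. Ranks 11 to 20 ran from *CR42545* (42.5), *CR10991* (39.1), *CR41440* (36.1), *CR30409* (30.7) and *CR14033* (30.4) down to *CR33221* (23.8), *CR45391* (23.5), *CR45879* (23.4), *CR43142* (22.7) and *CR45775* (21.1). By position, 9 of these 20 members lie on 2L, 3 each on 3L and 3R, 2 each on 2R and X, and 1 on Y. The 17 members on 2L had a median of 22.7 at day 3, against 10.3 for the 9 on 3R, 5.20 for the 7 on Y, 4.77 for the 11 on X, 3.14 for the 12 on 2R and 3.01 for the 15 on 3L. Medians over all genes of each arm are not given here, so these values are a description of the members alone.

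**Figure D2:**
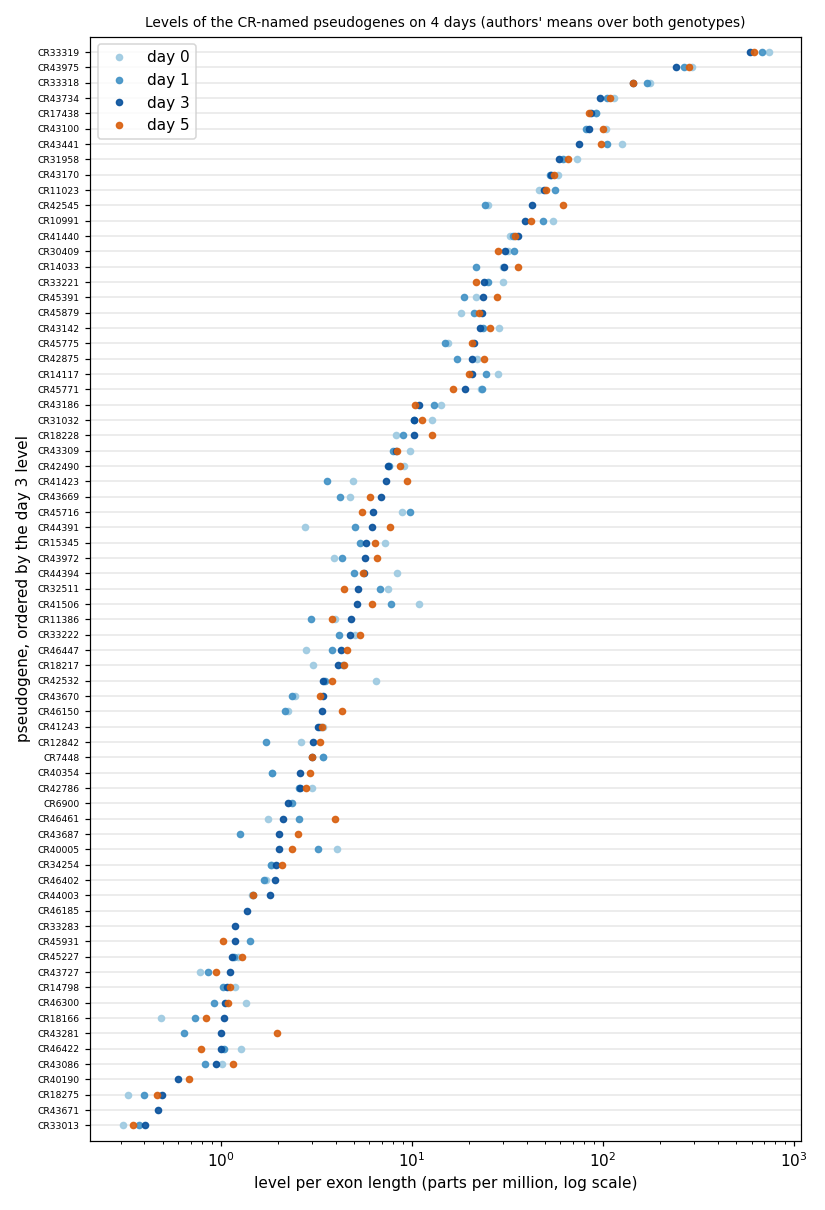
Level per exon length (ppm, log axis) of the 71 CR-named pseudogenes, ordered by their day 3 level, with 1 point for each day a gene is listed. Each point is the authors' mean over both genotypes, without error. *CR33319* is highest on each of the 4 days (588 to 739) and *CR33013* is lowest at day 3 (0.40).

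At the other end, the members just inside the minimum at day 3 were *CR45931* (mean normalized count 11.2) and *CR6900* (11.6). Just outside it were *CR33294* (9.81) and *CR46167* (9.49). Of the 71 members, 62 were listed on all 4 days and 9 were not. *CR46185* (16.2), *CR33283* (13.5) and *CR43671* (12.03) were listed at day 3 alone, and *CR40190* at days 3 (16.5) and 5 (15.6). The rule fixed this, since every member had to be listed at day 3. Outside the set, *CR45315* was listed at day 0 alone (7.82) and *CR46423* at day 1 alone (8.94). *CR6900* was listed at days 1 (12.3) and 3, and *CR46402* at days 0 (10.7), 1 (13.8) and 3 (15.6). *CR43281* was not listed at day 0 and had counts of 12.7, 19.6 and 31.8 on the later days. *CR43687* had 8.97, 14.1 and 14.6 on those days, and *CR45931* 13.7, 11.2 and 8.02. The lowest value in any table was between 4.96 and 5.27 and how genes were dropped is not given in the sources used here, so a missing entry does not mean an absence of RNA.

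Members could lie in or over other genes, and the counting of such reads matters for their values. The spans of 21 members overlapped another annotated gene, 6 on the same strand and 16 on the opposite strand (*CR7448* on both), and 20 of the 21 overlapped a protein-coding gene. The library kit keeps the strand, but the strand setting of the counting is not given in the sources used here, so reads of opposite-strand partners may not have been told apart. At day 3 the median level per exon length was 4.77 for the 21 overlapping members and 5.42 for the other 50.

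Of these members, 5 lie entirely inside another gene. *CR14033* (2L, 5242699 to 5244239, plus strand) lies within *tkv*, which encodes a type I BMP receptor, on the opposite strand, with 158 bases of shared exon. Mean normalized counts of *CR14033* were 540.9, 524.3, 722.5 and 707.0 in order of day. Those of *tkv* were 126.8, 172.8, 229.4 and 168.2. *CR43972* lies within *Ctps*, which encodes CTP synthase, and *CR46447* within *Hr4*, which encodes a nuclear receptor, both on the opposite strand and without shared exon. *CR43972* had counts of 75.4, 110.7, 144.7 and 137.8, and *Ctps* 119.9, 185.3, 312.5 and 249.7. *CR43441* and *CR45879* lie on the same strand as their hosts *Dhc1* and *dpr6*, in introns. *CR43441* had counts of 839.4, 933.6, 661.9 and 712.7, and *Dhc1* had 265.3, 454.6, 359.5 and 303.3. *CR45879* had 236.7, 367.7, 403.5 and 317.5, and *dpr6*, an immunoglobulin family gene, had 31.3, 36.3, 34.6 and 22.5.

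Exons overlapped on the same strand by at least 50 bases for 3 members. *CR30409* shares 139 bases with *Rpi*, which encodes ribose-5-phosphate isomerase, *CR33222* shares 60 bases with the ribosomal protein gene *RpS6*, and *CR44003* shares 58 bases with *CG44002*. At day 3 the mean normalized count was 426.6 for *CR30409* and 3739 for *Rpi*, 44.3 for *CR33222* and 6195 for *RpS6*, and 47.8 for *CR44003* and 32.3 for *CG44002*. The levels of these 3 pseudogenes are uncertain, because reads in the shared stretch can be given to either gene or to neither.

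Some members are neighbors. Within 10 kb of each other, 6 pairs of members were found, formed by 12 genes, and in all 6 both lie on the same strand. Besides *CR33318* and *CR33319*, these were *CR43669* and *CR43670* on 2L (114 bases apart), *CR46422* and *CR34254* on 3L (261 bases), *CR11386* and *CR33222* on X (450 bases), *CR18275* and *CR18166* on X (554 bases), and *CR46150* and *CR41423* on Y (6210 bases). *CR43669* and *CR43670*, which share the older name *CG31782*, had counts of 47.3, 55.8, 90.04 and 65.0 (*CR43669*) and 61.4, 78.9, 113 and 89.7 (*CR43670*) in order of day, a ratio of 0.707 to 0.797. *CR43671*, listed at day 3 alone, bears the same older name and lies further along 2L. *CR46422* and *CR34254* had counts of 18.1 and 23.3 at day 0 but 12.1 and 29.1 at day 5, a ratio of 0.775 and 0.417. Both rest on low counts.

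The 7 members on chromosome Y were followed one by one, because this chromosome is active in the male germline and holds families of copies. *CR45771* (3297271 to 3298126) and *CR45775* (3340824 to 3341546) carry the older name *Mst77Y*, that of Y-linked copies of *Mst77F*, which encodes a sperm nuclear basic protein. The mean normalized count of *CR45771* was 214.5, 287.6, 232.4 and 166.6 at days 0, 1, 3 and 5, and that of *CR45775* was 119.5, 153.7, 214.9 and 172.7. Per exon length, *CR45771* was at 23.1, 23.2, 19.0 and 16.5 ppm and *CR45775* at 15.5, 14.9, 21.1 and 20.6, so that *CR45771* was the higher at days 0 and 1 and *CR45775* at days 3 and 5. *Mst77F* itself, on 3L, had counts of 45162, 61919, 55974 and 41961. The protein-coding copies *Mst77Y-7* (9.79, 12.2, 14.9 and 12.8 ppm per exon length) and *Mst77Y-13* (2.24, 3.04, 3.60 and 3.27) were below both pseudogenes on each day. Reads shared among these copies were not examined.

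*CR46150* (3258406 to 3259223) and *CR46185* (3229424 to 3230181) carry the older name CG12717-related. *CR46150* had counts of 21.7, 27.8, 42.9 and 44.9, and *CR46185* was listed at day 3 alone. *CR46167*, just below the minimum, is a further gene of chromosome Y with this older name. *CR41423* (3265434 to 3266598), 6210 bases from *CR46150*, had counts of 67.7, 65.5, 132.8 and 140.8, and the ratio of *CR46150* to *CR41423* was 0.320, 0.425, 0.323 and 0.318. As a share of the day's counts, *CR46150* went from 1.34 ppm at day 0 to 2.51 at day 5, and *CR41423* from 4.19 to 7.88. The share of *CG12717*, a protein-coding gene on the X chromosome, went from 8.72 to 15.6 over the same days. *CR41506* went the other way, with counts of 140.2, 133.6, 88.1 and 86.3 and a share of 8.66 at day 0 and 4.83 at day 5. *CR45931* was low on the 3 days it was listed.

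**Figure D3:**
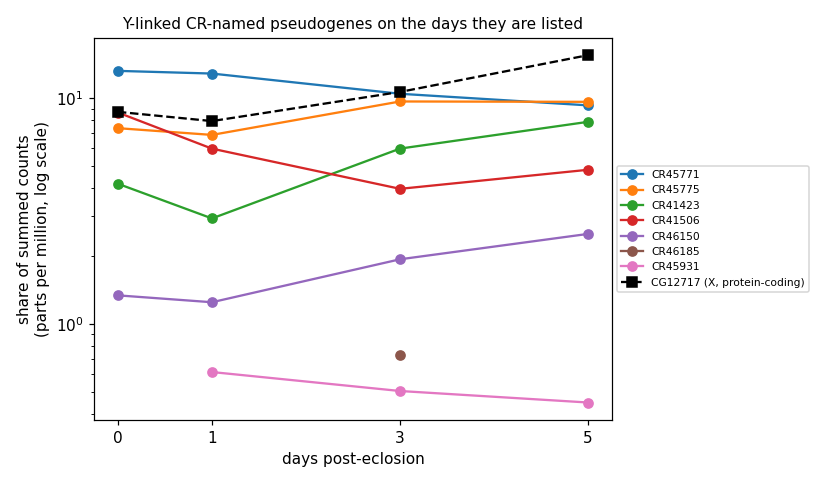
Share of a day's summed mean normalized counts (ppm, log axis) against days post-eclosion for the 7 CR-named pseudogenes on chromosome Y, with the X-linked gene *CG12717* as a dashed line. Each point is the authors' mean over both genotypes. *CR41423* and *CR46150* are higher at day 5 (7.88 and 2.51) than at day 0 (4.19 and 1.34), and *CR41506* is lower (4.83 against 8.66).

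The days were then compared by each gene's share of the day's summed counts. As each share comes from 1 mean over both genotypes, a ratio between days has no error and was not tested, and a difference arising in 1 genotype cannot be told apart from one in both. A ratio of at least 2 or at most 0.5 was counted as past the limit. From day 0 to day 1, 0 of 63 members were past it in either direction, where 0.365% of 12345 genes were higher and 0.381% lower. From day 0 to day 5, 3 of 62 members were higher (4.84%) and 0 lower, where 2.22% of 12258 genes were higher and 2.09% lower. The 4.84% rests on 3 genes. The 0 lower holds for members only, because the day 3 minimum shaped the set. It left out *CR34285*, listed at days 0 (19.1) and 5 (9.38) but not at day 3, whose ratio was 0.444. The median ratio of day 5 to day 0 was 0.948 over the 62 members and 1.04 over the 12258 genes, and for day 1 to day 0 it was 0.884 over 63 members and 0.969 over 12345 genes.

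The choice of scale decides on which side of 1 most members fall. On the share scale, 15 of 63 members had a ratio above 1 for day 1 and 48 below it, where 42.4% of all genes were above 1. On the deposited scale without rescaling, 55 were above 1 and 8 below, where 93.6% of all genes were above 1 and the median of all genes also moved, by 0.42 on the log2 scale. For day 5, 28 members were above and 34 below on the share scale, where 56.3% of all genes were above 1. On the deposited scale 38 were above and 24 below, with 71.4% of all genes above 1 and their median moved by 0.20. Scaled instead by the median ratio over genes listed on all 4 days, 15 members were above 1 and 48 below for day 1 (45.6% of all genes above), and 25 above and 37 below for day 5 (49.1%). The members' median on that scale was 0.897 for day 1 and 0.908 for day 5.

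The 3 members past the limit at day 5 were *CR44391*, *CR42545* and *CR46461*. *CR44391* (FBgn0265541; chromosome 2R, 17135595 to 17136325, plus strand) had counts of 23.6, 58.0, 70.1 and 71.3 at days 0, 1, 3 and 5, and a ratio of 2.73. Its ratio of day 1 to day 0 was 1.78. *CR42545* (FBgn0260718; 2L, 21577205 to 21577676, minus strand) had counts of 123.0, 157.2, 272.8 and 329.0 and a ratio of 2.42, but a ratio of 0.93 at day 1. Its level per exon length was 25.2, 24.2, 42.5 and 62.2. *CR46461* (FBgn0287591; 3L, 12907085 to 12907635, plus strand) had low counts, of 11.5, 22.1, 18.2 and 27.8, and a ratio of 2.18. Between days 0 and 5 the summed share of the sheath muscle markers went from 3213 to 1161 ppm. That of the hemocyte markers went from 22.7 to 110. Spermatogonial markers went from 94.9 to 116, spermatocyte markers from 485 to 576 and cyst cell markers from 96.2 to 113. Spermatid markers went from 6689 to 6274 and accessory gland markers from 98.3 to 46.0. Hub markers went from 53.9 to 53.1 and pigment cell markers from 167 to 158. The part of any of these cell types in the 3 ratios was not tested.

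Next in order came the Y-linked *CR41423* (1.88) and *CR46150* (1.87), which were past 2 on the deposited scale (2.08 and 2.07). The lowest ratios were those of *CR41506* (0.557), *CR40005* (0.57), *CR42532* (0.58), *CR32511* (0.58) and *CR46422* (0.607). *CR40005* had counts of 58.6, 62.2, 38.2 and 37.0, *CR42532* 38.8, 27.9, 27.2 and 24.7, and *CR32511* 32.0, 38.9, 29.4 and 20.5. In these 3 genes the counts of days 3 and 5 were below that of day 0.

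**Figure D4:**
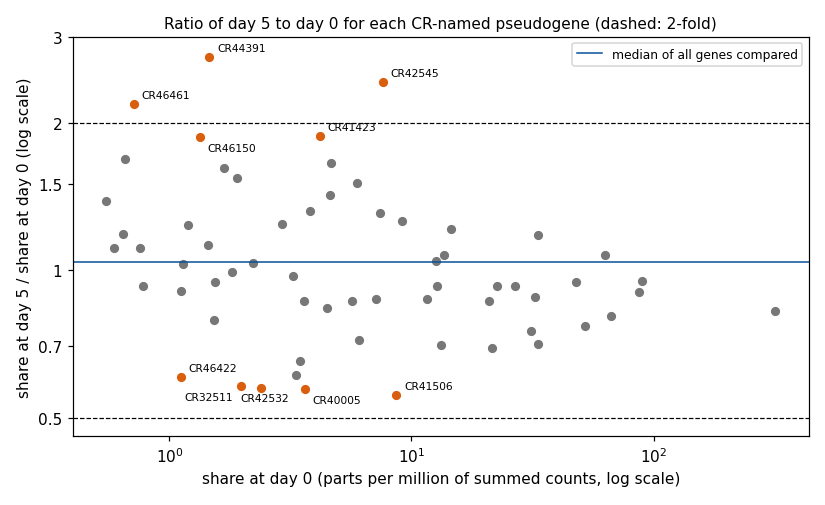
Ratio of the day 5 share to the day 0 share (log axis) against the day 0 share (ppm, log axis). Points are the 62 CR-named pseudogenes that passed the day 3 minimum and were listed on both days. The 5 highest and the 5 lowest ratios are labelled in orange. Dashed lines mark ratios of 2 and 0.5, and the blue line marks the median of all 12258 genes (1.04). 3 genes lie above 2 and 0 below 0.5.

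Across all days, most members varied by under 1.5-fold. For the 62 members listed on all 4 days, the highest share divided by the lowest had a median of 1.42 and ran from 1.06 to 2.73. This value was under 1.5 for 38 members (61.3%) and at least 2 for 8 (12.9%). Over the 12240 genes that met the same conditions, the median was 1.32, with 71.5% under 1.5 and 6.91% at 2 or more. The members' median percentile by count was 23.2 at day 3, and the part of low counts in this spread was not tested. The order of the members was much the same on each day, with a Pearson correlation of the log2 share across members between 0.971 (days 0 and 5, 62 members) and 0.993 (days 3 and 5, 66 members). These correlations are across genes, which are not replicates, and carry no p-value.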

How the data were processed

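Reads were checked by the authors in FastQC and mapped to BDGP Release 6 (dm6) in Bowtie2 2.5.1. Gene totals came from featureCounts on RefSeq features, and DESeq2 was run by day. The signal used here is the mean normalized count that the authors deposited for each gene and day, over 6 libraries of both genotypes, after division by size factors. The tables also hold 5 columns of the authors' own comparison (log2 fold change, its standard error, test statistic, p-value and adjusted p-value). None of these was used, and no count model was fitted. The plan foresaw a test between genotypes only if counts per library were given. Depth per library is unknown here.

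Shares are ppm of a day's summed means. Exon lengths, spans and gene types came from Ensembl release 115 and RefSeq, both on Release 6. Of 13395 genes, 13370 were found in RefSeq by name or older name, and 13370 had a length. Mitochondrial genes without a match took their RefSeq length. Overlaps exclude transposable elements.

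Genes named were the 20 highest per exon length at day 3, the 5 highest and 5 lowest ratios of day 5 to day 0, the 2 on either side of the minimum, those on chromosome Y, and those listed on fewer than 4 days. The rule also foresaw genes with near-identical transcripts, but that search was not run. Members with overlaps or close neighbors were named as well, after their values were seen. The members and lists were chosen with earlier results of these data known. Other minimums, folds, scales, exon lengths and kinds of overlap were tried. Python 3.11.15 and matplotlib 3.10.9 were used.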

Additional observations from a re-analysis of the deposited data

How the results depend on the processing

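The minimum at day 3 set the number of pseudogenes: 71 at 10, 75 at 5, 55 at 20 and 41 at 50, and 60 reached 10 on all 4 days. The number past the limit between days moved with the limit and the scale, and the share of all genes past the same limit is given in brackets. Higher at day 5 than at day 0 were 3 of 62 at 2-fold (2.22%), 5 on the deposited scale (3.29%), 10 at 1.5-fold (8.65%), 0 at 3-fold (0.596%) and, of 36 pseudogenes at 50 or more on all 4 days, 1 (1% of 9702 genes), *CR42545*. Lower at day 5, among the same 62 members, were 0 at 2-fold (2.09%), 7 at 1.5-fold (6.99%) and 1 at a fall of 10 percentile points (2.96%). Higher at day 1, of 63, were 0 at 2-fold (0.365%), 2 on the deposited scale (1.62%) and 1 at 1.5-fold (1.28%), and lower were 0 at 2-fold (0.381%) and 4 at 1.5-fold (3.03%). With overlap asked of exons on the same strand by at least 50 bases, 3 members were left of the 21, since this counts fewer kinds of overlap. The number above the median of genes per exon length was 24 with the longest transcript or without mitochondrial genes as well. The search for near-identical transcripts was not run. No paired analysis was possible because the tables give 1 mean per day and no values per library, and for the same reason no replicate was left out in turn. Low means limit what the ratios show.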

Other observations

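Besides the CR-named genes, 9 pseudogenes with another kind of symbol were listed on at least 1 day. The most abundant was *swaPsi*, a copy related to the maternal-effect gene *swallow*, with mean normalized counts of 2329, 3458, 3299 and 2323 at days 0, 1, 3 and 5 and a level per exon length of 138 ppm at day 3, close to that of *CR33318* (144). *Cyp6a15Psi*, named after a cytochrome P450 family, had counts of 214.3, 291.6, 225.4 and 171.9. *Mst77Y-16Psi*, named as a further Y-linked copy of *Mst77F* but placed on an unassigned scaffold, had 108.4, 128.3, 115.3 and 77.9, and its share at day 5 was 0.651 of that at day 0, near the 0.703 of *CR45771* and unlike the 1.31 of *CR45775*. *betaNACtes5* had 102.9, 73.1, 78.9 and 81.1. *Ir51a* and *Ir48a*, named as ionotropic receptors, were at 20.7 or lower wherever they were listed. Values per library were not used, so none of these differences was tested.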
